A study of Homo sapiens with 58 samples.

Results

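The regulatory elements (REs) around the 6 genes that encode the cartilage collagens of types II, IX and XI (COL2A1, COL9A1, COL9A2, COL9A3, COL11A1 and COL11A2) were examined for their dependence on SOX9. An RE is a reproducible ATAC-seq peak region, and an RE was taken as a member if its midpoint lay inside one of these gene bodies or within 100 kb of an annotated start site of the gene (GENCODE v44, hg38). This rule gave 124 of the 151457 REs of the count table. COL2A1 had 21 members, COL9A1 had 8, COL9A2 had 8, COL9A3 had 39, COL11A1 had 18 and COL11A2 had 30. Members are written as the gene and a number that runs along its transcribed strand, so that COL2A1-RE8 lies downstream of COL2A1-RE5. The rule uses position only, and 73 of the 124 members are nearer to the start of another coding gene.

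Collagen II, a homotrimer of the chain encoded by COL2A1, is the main fibril of hyaline cartilage. Collagen XI, whose chains come from COL11A1, COL11A2 and COL2A1, sits inside the fibril and limits its thickness. Collagen IX, a heterotrimer of the COL9A1, COL9A2 and COL9A3 chains, is cross-linked to the fibril surface. SOX9, together with SOX5 and SOX6, is the established activator of these genes in chondrocytes, and enhancers in the first intron of COL2A1 are the classical example. Cranial neural crest cells (CNCCs), which give rise to facial cartilage and bone, are progenitors that express SOX9 before cartilage forms.

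ATAC-seq, in which a transposase cuts open chromatin, was carried out on passage 4 CNCCs made from the H9 line of human embryonic stem cells, a widely used established line. Both endogenous copies of SOX9 in SOX9-tagged cells carry a degradation tag derived from FKBP12, fused with mNeonGreen and V5 at the carboxy terminus, so that dTAGV-1, a small molecule that recruits a ubiquitin ligase to the tag, lowers SOX9. They come from 2 clones (S9CC13 and S9CC47), and cells without the tag are called wild type (WT). After 48 h, SOX9-tagged cells had received 0, 0.5, 1.6, 5, 16 or 500 nM dTAGV-1 (7 replicates each, a replicate being a clone in a differentiation batch), which left 100, 77.9, 51.7, 25.8, 8.14 and 0.95% of SOX9 per the labels. WT cells were treated with 0 or 500 nM for 48 h (2 replicates each). In a time course, cells of both genotypes received 500 nM dTAGV-1 for 3 or 24 h, or DMSO as vehicle for 24 h (2 replicates each, batches R4 and R5).

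The 58 samples held 22.91 to 81.04 M counts in REs, and no pair of the 134 pairs of samples within a group agreed within sampling noise. The 22 promoter REs of 9 neural crest genes summed to 489.5 to 680.3 CPM (counts scaled to the size of each library) at 0 nM and to 526.2 to 653.3 CPM at 500 nM in SOX9-tagged cells. Those of 5 chondrocyte genes (9 REs) summed to 150.1 to 212.4 and 131.1 to 190.5 CPM. These sums cover unlike numbers of REs. Per promoter RE, the mean at 0 nM was 26.9 CPM for neural crest, 19.4 for chondrocyte and 18.1 for pluripotency genes. It was 30.0 for melanocyte genes (only PMEL had promoter REs), 8.41 for neural progenitor, 6.03 for endothelial and 3.33 for muscle genes. Among pluripotency genes, the summed promoters (4 of 5 genes had one, led by LIN28A) lay at 80.9 to 108.8 CPM at 0 nM and 62.5 to 78.7 CPM at 500 nM, so the groups did not overlap; POU5F1 was at the 28.1 percentile of all REs and NANOG had no promoter RE. The part of this shift in the results below was not tested. In bulk cells, a lower count at an RE can mean fewer cells in which it is open or fewer cuts per cell, and these cannot be told apart.

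The sequences below are those of named members that hold a SOX core and changed at full depletion or at 3 h; they are shown because the changes described afterwards were measured over them. A SOX core was searched as ACAAAG or ACAATG on either strand, so CTTTGT and CATTGT mark a core on the opposite strand. Each is a window of 160 bases of the hg38 plus strand inside the RE, with cores in capitals. At COL2A1 these are an upstream RE (COL2A1-RE3, chr12:48027388-48027547), 2 REs in intron 1 (COL2A1-RE6, chr12:48003562-48003721, and COL2A1-RE8, chr12:48002168-48002327) and 1 RE in intron 18 (COL2A1-RE10, chr12:47988494-47988653).
COL2A1-RE3: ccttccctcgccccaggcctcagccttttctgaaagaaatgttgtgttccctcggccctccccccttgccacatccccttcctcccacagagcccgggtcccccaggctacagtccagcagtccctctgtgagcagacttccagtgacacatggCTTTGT
COL2A1-RE6: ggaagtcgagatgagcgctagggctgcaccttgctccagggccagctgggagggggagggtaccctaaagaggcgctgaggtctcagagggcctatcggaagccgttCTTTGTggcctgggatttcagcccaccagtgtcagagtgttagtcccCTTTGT
COL2A1-RE8: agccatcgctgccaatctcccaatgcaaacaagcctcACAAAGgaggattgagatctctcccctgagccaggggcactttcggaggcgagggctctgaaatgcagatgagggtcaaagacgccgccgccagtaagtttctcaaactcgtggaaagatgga
COL2A1-RE10: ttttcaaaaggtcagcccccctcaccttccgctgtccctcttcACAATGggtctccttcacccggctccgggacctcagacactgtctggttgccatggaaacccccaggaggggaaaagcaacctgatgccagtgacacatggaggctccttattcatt

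At the collagen IX genes they are an RE in intron 36 of COL9A1 (COL9A1-RE5, chr6:70230818-70230977), 1 at intron 2 of COL9A2 (COL9A2-RE7, chr1:40315388-40315547) and REs at introns 1 and 24 of COL9A3 (COL9A3-RE14, chr20:62817321-62817480, and COL9A3-RE19, chr20:62831966-62832125). COL9A2-RE7 is shown because it holds a facing pair, in which a core is followed by a core on the opposite strand after a gap of 3, 4 or 5 bases; in COL9A3-RE14 the capitals mark a near pair, in which at most 1 of the 12 core letters differs.
COL9A1-RE5: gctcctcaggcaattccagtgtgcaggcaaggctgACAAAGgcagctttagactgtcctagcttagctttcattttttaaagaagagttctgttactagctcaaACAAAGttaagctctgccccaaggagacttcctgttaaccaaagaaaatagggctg
COL9A2-RE7: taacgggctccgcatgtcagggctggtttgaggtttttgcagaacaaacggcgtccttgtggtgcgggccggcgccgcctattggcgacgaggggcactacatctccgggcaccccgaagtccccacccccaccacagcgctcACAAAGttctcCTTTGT
COL9A3-RE14: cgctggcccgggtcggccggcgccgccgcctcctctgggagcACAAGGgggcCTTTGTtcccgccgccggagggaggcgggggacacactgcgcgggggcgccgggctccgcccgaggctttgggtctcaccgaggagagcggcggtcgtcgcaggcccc
COL9A3-RE19: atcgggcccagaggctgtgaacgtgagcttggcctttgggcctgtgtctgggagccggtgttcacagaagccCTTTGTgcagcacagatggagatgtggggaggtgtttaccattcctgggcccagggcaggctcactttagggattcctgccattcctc

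At COL11A1 they are an RE in intron 1 (COL11A1-RE5, chr1:103106889-103107048, capitals on a near pair), an RE in intron 44 (COL11A1-RE10, chr1:102937617-102937776) and an RE beyond the 3′ end (COL11A1-RE14, chr1:102858631-102858790), which differs from the others in that it was higher without SOX9. No RE of COL11A2 met this criterion.
COL11A1-RE5: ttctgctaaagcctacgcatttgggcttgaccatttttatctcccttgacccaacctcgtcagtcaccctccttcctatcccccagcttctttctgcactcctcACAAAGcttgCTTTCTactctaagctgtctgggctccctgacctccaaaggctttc
COL11A1-RE10: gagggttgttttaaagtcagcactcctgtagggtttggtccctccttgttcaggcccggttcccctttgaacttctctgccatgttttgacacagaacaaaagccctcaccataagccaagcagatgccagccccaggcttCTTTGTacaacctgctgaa
COL11A1-RE14: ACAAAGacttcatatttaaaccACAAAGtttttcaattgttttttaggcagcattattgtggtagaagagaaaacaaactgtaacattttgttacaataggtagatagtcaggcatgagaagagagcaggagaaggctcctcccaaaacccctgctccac

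Before depletion, the 6 genes differed in how open their surroundings were. Per kilobase of RE, the median member at 0 nM held 14.3 CPM at COL2A1, 2.94 at COL9A1, 24.5 at COL9A2, 5.91 at COL9A3, 2.43 at COL11A1 and 14.8 at COL11A2, where the median of all REs was 4.44 CPM per kb. The most open member was COL11A2-RE7 (136.4 CPM per kb), which lies at the start of another transcript, HCG25. It was followed by COL9A2-RE7 (85.9 CPM per kb) and COL2A1-RE10 (76.4 CPM per kb). At the start of COL11A1, COL11A1-RE4 held 71.8 CPM per kb, the 98.3 percentile of all REs, whereas COL11A2-RE16 at the start of COL11A2 held 15.3 CPM per kb. The lowest level was 1.15 CPM per kb at COL11A1-RE16, beyond the end of its gene, followed by 1.32 at COL9A1-RE3 and 1.38 at COL11A1-RE3.

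Comparing 500 with 0 nM at 48 h asked which of these REs depend on SOX9. In total 24 members were lower and 5 were higher (edgeR adjusted p-value below 0.05, adjusted over all REs by Benjamini-Hochberg). These are 19.4 and 4.03% of the 124 members, where 13.9% of all REs were lower and 10.2% were higher. The median log2 fold change was -0.05 over the members and 0.02 over all REs. COL2A1 had 10 lower members and COL9A3 had 8, which together are 18 of the 24. COL9A2 and COL11A1 had 2 lower members each, and COL9A1 and COL11A2 had 1 each. Members that were higher lay at COL11A1 (2), COL9A1, COL9A3 and COL11A2 (1 each), and none lay at COL2A1 or COL9A2.

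**Figure D1:**
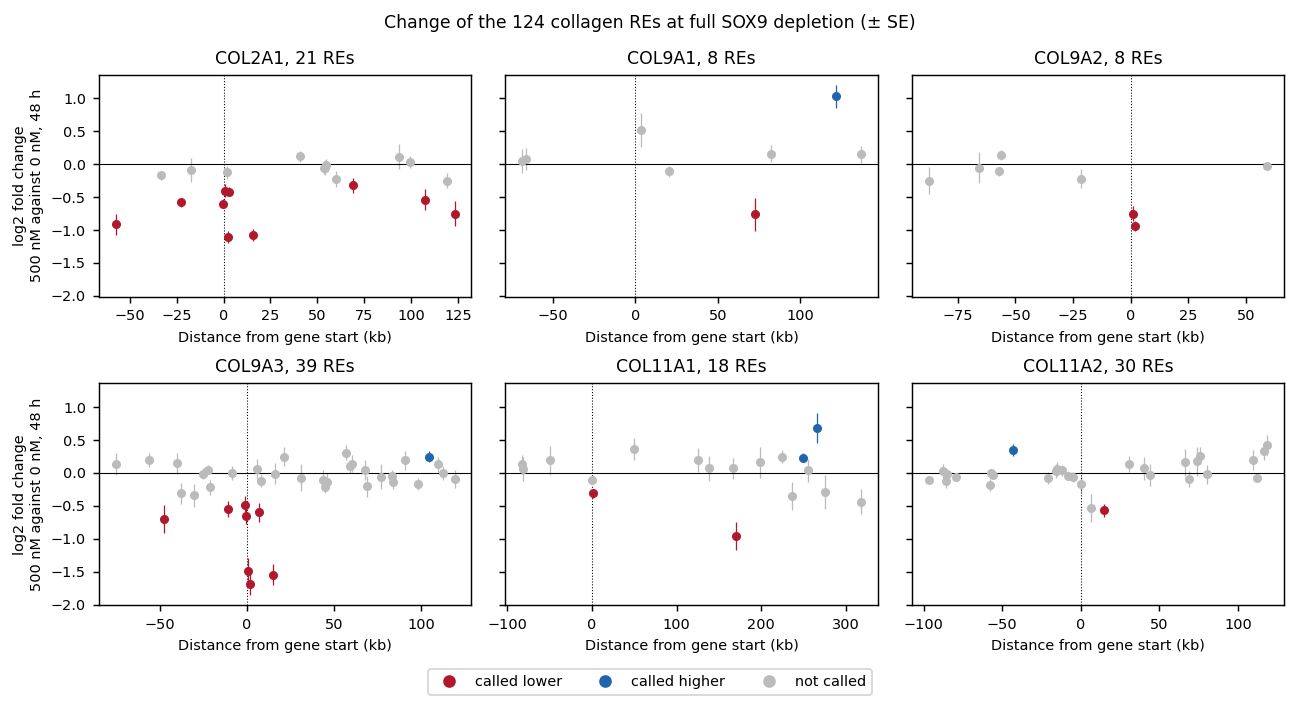
Change of each of the 124 members by its distance from the gene start. The horizontal axis gives kb along the transcribed strand, the vertical axis the log2 fold change of 500 against 0 nM at 48 h with its standard error, and colour the call; 10 members of COL2A1, 2 of COL9A2 and 8 of COL9A3 are called lower, and at COL2A1 some of them lie far from the start.

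Many of the lower members lay near the collagen genes' own starts or inside their bodies. Of the 31 members inside a gene body 14 were lower and none was higher, with 10 lower and 5 higher among the 93 outside. Within 1000 bp of an annotated start of the collagen gene, alternative starts inside the body included, 13 of 19 members were lower and none was higher, and their median log2 fold change was -0.57. At the start of another coding gene 1 of 27 members was lower. This was COL9A3-RE10, at the starts of OGFR and its antisense transcript, with a log2 fold change of -0.55. Where the collagen gene had the nearest coding start 18 of 51 members were lower, and where another gene did 6 of 73 were lower.

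COL2A1 had the highest share of lower members, 47.6%, with a median log2 fold change of -0.25 over its 21 members. COL2A1-RE8 (chr12:48001998-48002498), in intron 1 and 2228 bp from the gene start, ranged from 21.2 to 38.8 CPM at 0 nM (median 27.9) and from 10.1 to 17.8 CPM at 500 nM (median 13.2). Every replicate at 500 nM was thus below every replicate at 0 nM. The log2 fold change was -1.10 ± 0.09 (SE), with an edgeR adjusted p of 1.85e-09, and all 7 replicates fell, by ratios from -1.46 to -0.68 on the log2 scale. COL2A1-RE10 (chr12:47988324-47988824), in intron 18 at the start of a shorter annotated transcript, ranged from 25.5 to 51.4 CPM at 0 nM (median 36.1) and from 11.9 to 24.3 CPM at 500 nM (median 19.1). Its groups did not overlap either, and the log2 fold change was -1.07 ± 0.09 (SE), edgeR adjusted p = 8.49e-10. The mean ratio of this RE was -0.88 in clone S9CC13 and -1.30 in S9CC47, and -1.26 in batches R5 to R8 and -0.79 in R10 to R14, so its fall was present in each clone and in both sets of batches. The same held for all 16 named members that were lower, whose mean ratio was at most -0.26 in S9CC13, -0.36 in S9CC47, -0.37 in R5 to R8 and -0.21 in R10 to R14. Batches R10 to R14 hold S9CC13 only, and all S9CC47 replicates lie in R5 to R8. The splits by clone and by batch are thus not separate checks.

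At the COL2A1 start itself, COL2A1-RE5 (chr12:48004325-48005509), which reaches into the 5′ UTR, ranged from 36.2 to 70.1 CPM at 0 nM (median 48.1) and from 24.0 to 45.7 CPM at 500 nM (median 35.5). These ranges overlapped, but each of the 7 replicates was lower than its own 0 nM sample, and the log2 fold change was -0.60 ± 0.07 (SE), edgeR adjusted p = 4.27e-07. Upstream, COL2A1-RE3 (chr12:48027208-48027708) had a median of 36.0 CPM (27.2 to 49.9) at 0 nM and 25.1 CPM (18.7 to 30.4) at 500 nM, a log2 fold change of -0.58 ± 0.07. Intron 1 holds 4 members in all, and they did not change alike. COL2A1-RE6, nearest to the start, changed by -0.40 ± 0.10 on the log2 scale and COL2A1-RE9, the farthest, by -0.42 ± 0.07, both past the threshold. COL2A1-RE7, which lies between COL2A1-RE6 and COL2A1-RE8, ranged from 13.8 to 22.5 CPM at 0 nM and from 12.5 to 21.5 CPM at 500 nM, and its log2 fold change of -0.12 ± 0.10 did not pass (edgeR adjusted p = 0.429).

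The other lower members of COL2A1 lay farther away and within other genes. COL2A1-RE1, in an intron of SENP1, which encodes a SUMO protease, had a log2 fold change of -0.91 ± 0.16. COL2A1-RE21, COL2A1-RE19 and COL2A1-RE16, in introns of VDR, which encodes the vitamin D receptor, had -0.75, -0.54 and -0.32. These distal members have the start of another gene nearest to them, and which gene they serve was not measured. The 3 members at starts of VDR or TMEM106C had log2 fold changes from -0.22 to 0.12 and did not pass the test.

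Of the collagen IX genes, COL9A2 had 2 lower members, both in its 5′ part. COL9A2-RE7 (chr1:40315132-40315632), centred in intron 2 and reaching into a coding exon, ranged from 39.1 to 48.2 CPM at 0 nM (median 41.9) and from 20.4 to 25.5 CPM at 500 nM (median 22.9). The groups did not overlap, and the log2 fold change of -0.94 ± 0.07 (SE) had the smallest adjusted p of the members, 5.5e-11 by edgeR. COL9A2-RE6 (chr1:40315785-40316625), beside it in intron 1, ranged from 16.9 to 30.9 CPM (median 27.5) at 0 nM and from 9.48 to 23.7 CPM (median 14.8) at 500 nM. The ranges overlapped, all 7 replicates were lower, and the log2 fold change was -0.75 ± 0.11 (SE), edgeR adjusted p = 8.01e-06. The other 6 members of COL9A2, which lay in or near SMAP2 and ZMPSTE24, had log2 fold changes from -0.25 to 0.14 and did not pass.

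COL9A3 held the members that fell most. COL9A3-RE15 (chr20:62818428-62818928), at intron 3, ranged from 4.09 to 12.3 CPM at 0 nM (median 6.32) and from 1.18 to 2.97 CPM at 500 nM (median 2.12). The groups did not overlap, and the log2 fold change of -1.69 ± 0.17 (SE) was the most negative of all members (edgeR adjusted p = 3.83e-08). The replicates of this RE fell by very different amounts, from -2.32 to -1.07 on the log2 scale, with means of -1.45 in S9CC13 and -1.88 in S9CC47. COL9A3-RE19 (chr20:62831796-62832296), at intron 24, had a median of 3.41 CPM (2.07 to 4.93) at 0 nM and 1.23 CPM (0.811 to 1.42) at 500 nM, without overlap, and a log2 fold change of -1.55 ± 0.16. COL9A3-RE14 (chr20:62817151-62817651), at intron 1, had a median of 3.02 CPM (1.34 to 4.65) and 1.08 CPM (0.586 to 1.59). Its lowest 0 nM replicate lay inside the 500 nM range, yet all 7 replicates fell, with a log2 fold change of -1.49 ± 0.20.

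At the most upstream annotated start of COL9A3, the promoter RE COL9A3-RE13 (chr20:62815886-62816386) fell from a median of 6.47 CPM (5.27 to 11.7) to 4.10 CPM (3.70 to 6.33), a log2 fold change of -0.65 ± 0.12. COL9A3-RE12, just upstream, changed by -0.49 and COL9A3-RE17, in intron 10, by -0.60, both past the threshold. The 1 higher member, COL9A3-RE36 in an intron of DIDO1, had a log2 fold change of 0.25 ± 0.08 with an edgeR adjusted p of 0.0277. That call is lost on leaving out replicate S9CC13_R13, S9CC13_R6 or S9CC47_R8, where the adjusted p was 0.0504, 0.0553 and 0.0887. From COL9A3-RE18 to COL9A3-RE39, with COL9A3-RE19 and COL9A3-RE36 set aside, no member passed the test.

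COL9A1, the third gene of this collagen, had no member within 1000 bp of its canonical start. COL9A1-RE4 (chr6:70282217-70283499), in intron 7 at an alternative start, had a median of 19.7 CPM (17.9 to 21.8) at 0 nM and 19.8 CPM (12.8 to 22.7) at 500 nM. These groups overlapped and the log2 fold change was -0.11 ± 0.08 (edgeR adjusted p = 0.327). COL9A1-RE5, in intron 36, was far less open, at 0.473 to 1.84 CPM (median 0.846) at 0 nM and 0.225 to 0.751 CPM (median 0.619) at 500 nM. Its log2 fold change of -0.76 ± 0.25 passed at an edgeR adjusted p of 0.0258. Without replicate S9CC47_R6 it was -0.45 with an adjusted p of 0.166, and without S9CC13_R13 or S9CC47_R8 the adjusted p was 0.0548 or 0.095. COL9A1-RE7, in an intron of the neighbouring collagen gene COL19A1, was the member that rose most, from a median of 0.792 CPM (0.654 to 1.06) to 1.65 CPM (1.02 to 2.72), which is 1.03 ± 0.18 on the log2 scale (edgeR adjusted p = 0.000125). The highest 0 nM replicate of this RE lay just inside the 500 nM range, and all 7 replicates were higher. In WT cells the log2 fold change of COL9A1-RE7 at 48 h was -0.14 ± 0.27, and the groups overlapped. After 3 and 24 h of 500 nM COL9A1-RE7 was higher in WT cells, without overlap and not past the threshold.

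Of the collagen XI genes, COL11A1 had 4 called members of 18 and COL11A2 had 2 of 30. COL11A1-RE4 (chr1:103107697-103108864), over exon 1 of COL11A1, had a median of 80.8 CPM (75.2 to 97.4) at 0 nM and 74.5 CPM (67.5 to 93.1) at 500 nM. The groups overlapped and the log2 fold change of -0.11 ± 0.06 did not pass (edgeR adjusted p = 0.171). COL11A1-RE5 (chr1:103106576-103107361), just downstream in intron 1, fell from 28.4 CPM (26.2 to 31.4) to 23.0 CPM (19.1 to 27.4) in all 7 replicates, by -0.31 ± 0.07 on the log2 scale with an edgeR adjusted p of 0.00143. COL11A1-RE10, a weak RE in intron 44, fell from a median of 1.09 CPM (0.792 to 2.30) to 0.664 CPM (0.315 to 0.991), a log2 fold change of -0.96 ± 0.21, in 6 of 7 replicates. Its mean ratio was -1.23 in S9CC13 and -0.39 in S9CC47. COL11A1-RE14, beyond the 3′ end, rose from a median of 17.4 CPM (14.6 to 18.3) to 20.5 CPM (17.1 to 23.1), by 0.23 ± 0.07 on the log2 scale with an edgeR adjusted p of 0.016, and COL11A1-RE16 by 0.68 ± 0.23 (edgeR adjusted p = 0.033).

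At COL11A2, the promoter RE COL11A2-RE16 (chr6:33192092-33192592) had a median of 6.72 CPM (5.84 to 10.5) at 0 nM and 6.92 CPM (5.59 to 8.07) at 500 nM. The groups overlapped, and the log2 fold change was -0.17 ± 0.12 (edgeR adjusted p = 0.351). COL11A2-RE18 (chr6:33177710-33178210), at intron 21 and an alternative start, fell from 7.44 CPM (5.98 to 9.77) to 5.54 CPM (3.60 to 6.19), a log2 fold change of -0.57 ± 0.10 in all 7 replicates. COL11A2-RE9, upstream and nearest to RING1, rose from 9.32 CPM (4.84 to 11.3) to 10.2 CPM (6.30 to 16.3), a log2 fold change of 0.35 ± 0.09 in all 7 replicates. No other member of this gene-dense stretch, which includes the starts of RXRB, RPS18 and HLA-DPA1, passed the test.

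Lower concentrations of dTAGV-1 asked how far SOX9 must fall before these REs close; each comparison shares the 0 nM samples with the comparison at 500 nM. At 16 nM, with 8.14% of SOX9 left, 19 members were lower and 3 higher, where 9.12% of all REs were lower and 7.12% higher. Of the 19, 18 were also lower at 500 nM, which is 75.0% of the lower members at 500 nM and 94.7% of those at 16 nM, and COL9A1-RE4 was lower at 16 nM only (log2 fold change -0.26, edgeR adjusted p = 0.0107). With the replicate as block, the count at 16 nM was 35 (27 lower and 8 higher). Among named members the block turned no direction, and it added COL9A1-RE7, COL11A1-RE5, COL11A1-RE10, COL11A2-RE9 and COL11A2-RE16 to those called.

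At 5 nM, with 25.8% left, 7 members were lower and none higher, where 4.24% of all REs were lower and 1.08% higher, and all 7 were lower at 500 nM too. They were COL2A1-RE3, COL2A1-RE8 and COL2A1-RE10, COL9A2-RE6 and COL9A2-RE7, and COL9A3-RE15 and COL9A3-RE19. The log2 fold changes of these members ran from -0.25 at COL2A1-RE3 to -0.89 at COL9A3-RE15. COL9A2-RE7 ranged from 26.1 to 31.4 CPM at 5 nM (median 28.5), below every 0 nM replicate, with -0.57 ± 0.06 and an edgeR adjusted p of 1.78e-05. It was the only named member whose 5 nM and 0 nM replicates did not overlap. With the replicate as block 12 members were called at 5 nM (11 lower and 1 higher). Without replicate S9CC47_R6 the count was 19. The call of COL2A1-RE3 at 5 nM is lost with DESeq2 (adjusted p = 0.105), with its size factors in edgeR (0.0736) and on leaving out S9CC13_R10, S9CC13_R13, S9CC13_R14, S9CC47_R5 or S9CC47_R8 (edgeR adjusted p from 0.0818 to 0.15). That of COL2A1-RE8 is lost without S9CC47_R5 or S9CC47_R8 (edgeR adjusted p = 0.0503 and 0.0534).

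At 1.6 nM, with 51.7% left, no member passed with edgeR, 4 had an unadjusted p under 0.05, and 0.0383% of all REs were called. COL9A2-RE7 ranged from 33.5 to 41.4 CPM (median 36.4), which overlapped the 0 nM replicates, and was below its own 0 nM sample in 7 of 7 replicates. With the replicate as block 4 members passed, all lower: COL9A2-RE7 (-0.21, edgeR adjusted p = 0.00578), COL9A2-RE6 (-0.24, adjusted p = 0.0244), COL9A3-RE15 (-0.32, adjusted p = 0.0274) and COL2A1-RE8 (-0.19, adjusted p = 0.0301). At 0.5 nM, with 77.9% left, no member passed with or without the block, 1 had an unadjusted p under 0.05, and 0.0% of all REs were called (5219 had an unadjusted p under 0.05). DESeq2 gave no call among the members at either concentration.

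**Figure D2:**
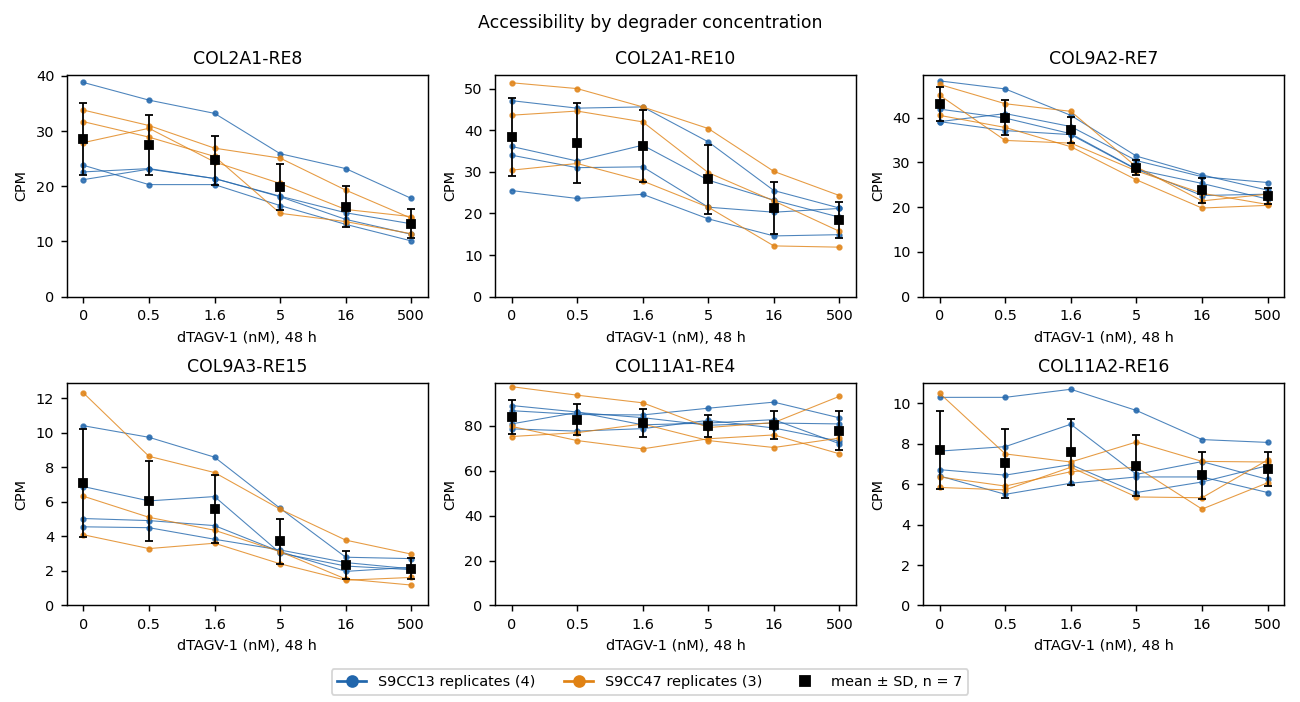
Accessibility of 6 members against the dTAGV-1 concentration at 48 h. Lines are single replicates by clone, black squares the mean ± SD (n = 7), and the vertical axis is CPM from 0; COL2A1-RE8, COL2A1-RE10, COL9A2-RE7 and COL9A3-RE15 descend towards 500 nM, while COL11A1-RE4 stays between 67.5 and 97.4 CPM at 0 and 500 nM and COL11A2-RE16 between 5.59 and 10.5 CPM.

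The shape of the response was described for the 24 lower members by the share of their own 500 nM change that was reached at each concentration. These members were chosen at 500 nM, so the values are a description without a test. The median share was 11.0% at 0.5 nM and 15.4% at 1.6 nM. It was 48.6% once 5 nM had been given and 82.4% with 16 nM. Most of the change therefore fell below 51.7% of SOX9. A Hill curve gave the ED50, the SOX9 level at the midpoint between the 0 and 500 nM levels of an RE. Its median was 23.0% of the untreated SOX9 level (20.6 to 25.8 on leaving out each replicate), and the SD between the replicates' own medians was 3.28.

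The ED50 differed between members. COL9A2-RE6 had the highest, 45.0% (40.0 to 48.1 on leaving out each replicate), followed by COL9A3-RE12 at 37.1%, COL9A3-RE15 at 36.1% (33.4 to 37.6) and COL9A2-RE7 at 35.5% (34.4 to 36.5). COL2A1-RE8 lay at 25.9% (22.5 to 27.5), COL2A1-RE10 at 24.0% (21.5 to 25.5) and the COL2A1 promoter RE, COL2A1-RE5, at 22.1%. The ranges of COL2A1-RE8 and COL2A1-RE10 overlapped each other and did not overlap that of COL9A2-RE7. Such ranges come from fits that share most samples and are not confidence intervals, and a difference in ED50 was not tested. The lower members of the collagen XI genes had ED50 values of 11.6% (COL11A1-RE5), 13.1% (COL11A1-RE10) and 11.8% (COL11A2-RE18). At COL2A1-RE16 and COL2A1-RE19, both in VDR, it was 2.30 and 2.16%, with -0.6 and -3.3% of the change reached at 16 nM. Both values lie between 8.14 and 0.95% of SOX9, where no concentration was measured. Leaving out each replicate gave 2.1 to 6.26 and 2.05 to 6.95%, so their place in that gap is not determined. The steepness of both curves was at the upper limit of the fit (10.0), as at COL9A3-RE3, COL9A3-RE13 and COL9A3-RE17.

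**Figure D3:**
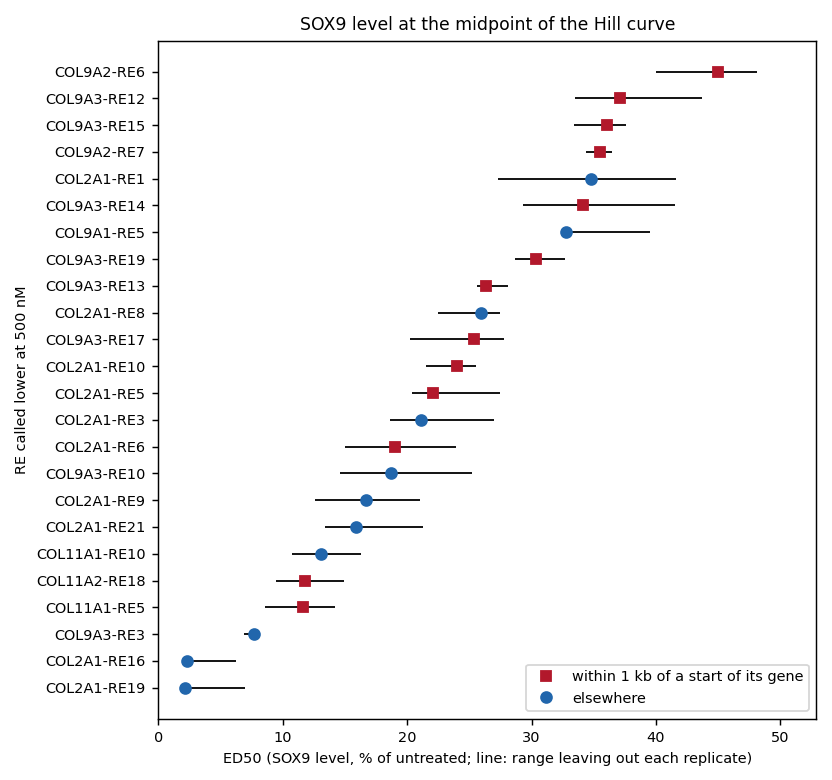
SOX9 level at the midpoint of the change of each of the 24 lower members (ED50, % of untreated). Points are REs, coloured by whether they lie within 1 kb of a start of their gene, and lines run over the fits that leave out each replicate. Values run from 2.16% at COL2A1-RE19 to 45.0% at COL9A2-RE6, and those below 8.14% are not determined within the gap down to 0.95%.

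The time course asked which members respond soon after SOX9 is removed. Both time points share the vehicle samples, and with 2 replicates a group the test takes its spread from the 6 samples of a genotype with batch as covariate. After 3 h of 500 nM, 11 members were lower and 1 was higher, where 7.43% of all REs were lower and 0.912% higher. COL2A1 and COL9A3 had 4 lower members each, COL9A2 had 2 and COL9A1 had 1, and the collagen XI genes had none. All 11 were also lower at 48 h, which is 45.8% of the 24 lower members there. COL9A3-RE5, upstream of COL9A3 and nearest to MRGBP, was higher at 3 h, with a log2 fold change of 0.85 ± 0.21, and had -0.31 at 48 h (edgeR adjusted p = 0.172). Its rise at 3 h did not pass the test of the difference from WT cells (0.66 ± 0.30, edgeR adjusted p = 0.341). With DESeq2 8 members were lower at 3 h and none higher, and no member was higher without S9CC13_R4 or without S9CC13_R5. The calls of COL9A1-RE5 and COL9A3-RE14 are lost with DESeq2 (adjusted p = 0.292 and 0.282).

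In SOX9-tagged cells COL2A1-RE8 stood at 31.6 and 24.0 CPM with vehicle (R4 and R5), at 13.3 and 10.6 CPM after 3 h and at 10.8 and 9.16 CPM after 24 h. Its levels in WT were 31.0 and 27.5, then 29.2 and 26.3, then 33.9 and 24.9 CPM. SOX9-tagged samples with dTAGV-1 were thus below those with vehicle, and WT samples overlapped; the log2 fold change was -1.28 ± 0.10 at 3 h (edgeR adjusted p = 2.49e-08) and -1.53 ± 0.10 at 24 h. COL2A1-RE10 went from 40.1 and 55.0 CPM to 11.6 and 26.1 CPM after 3 h and 9.67 and 30.4 CPM after 24 h in SOX9-tagged cells. Batch R5 was higher than R4 throughout at this RE, and within each batch the treated samples were lower, with log2 fold changes of -1.51 ± 0.16 and -1.49 ± 0.16. COL2A1-RE3 went from 39.8 and 33.9 CPM to 20.9 and 19.3 CPM after 3 h, a log2 fold change of -0.93 ± 0.08 at 3 h, larger in size than its -0.58 after 48 h; the samples of the 2 experiments differ, and this difference was not tested.

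COL9A2-RE7 went from 42.2 and 27.4 CPM to 22.5 and 17.0 CPM after 3 h and 20.4 and 19.1 CPM after 24 h in SOX9-tagged cells, with log2 fold changes of -0.87 ± 0.10 and -0.85 ± 0.10. COL9A3-RE15 went from 4.42 and 4.34 CPM to 1.42 and 2.35 CPM after 3 h and 1.30 and 2.01 CPM after 24 h. In all of these the treated samples lay below both vehicle samples. COL9A3-RE19 had log2 fold changes of -1.20 ± 0.22 and -1.76 ± 0.23, and COL9A2-RE6 had -0.64 ± 0.10 and -0.67 ± 0.10, all past the threshold. On leaving out S9CC13_R4, with 1 SOX9-tagged sample then left in a group, COL9A3-RE19 had -0.77 at 3 h. In that fit COL9A2-RE6 had -0.6 at 3 h and -0.53 at 24 h, and COL9A2-RE7 had -0.6 at 24 h. COL2A1-RE21, in VDR, was lower as well, by -1.13 ± 0.21 at 3 h.

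The most open promoter REs of COL2A1 and COL9A3, COL2A1-RE5 and COL9A3-RE13, were not among the members lower at 3 h. Other members within 1000 bp of an annotated start of these genes were lower at 3 h. They were COL2A1-RE10, COL9A3-RE14, COL9A3-RE15, COL9A3-RE17 and COL9A3-RE19, and COL9A3-RE14 lies nearer to the canonical start than COL9A3-RE13. COL2A1-RE5 stood at 36.9 and 29.5 CPM with vehicle, 42.6 and 29.8 CPM after 3 h and 29.9 and 25.5 CPM after 24 h in SOX9-tagged cells. The log2 fold change was 0.05 ± 0.08 at 3 h (edgeR adjusted p = 0.854), -0.32 ± 0.08 at 24 h (adjusted p = 0.00965) and -0.60 ± 0.07 at 48 h. COL9A3-RE13 stood at 6.96 and 4.68 CPM, 9.50 and 4.66 CPM, and 4.31 and 4.20 CPM, with log2 fold changes of 0.18 ± 0.18 at 3 h and -0.48 ± 0.18 at 24 h (edgeR adjusted p = 0.709 and 0.0897). The 24 h call of COL2A1-RE5 is lost with DESeq2 (adjusted p = 0.0882), without S9CC13_R4 (edgeR adjusted p = 0.612) and without S9CC13_R5 (0.288), and its difference from WT cells at 24 h was -0.24 ± 0.17 (edgeR adjusted p = 0.544). For both promoter REs, the 3 h samples overlapped the vehicle samples. COL11A1-RE10, lower at 48 h, had -0.02 at 3 h and 0.05 at 24 h, and COL11A2-RE18 had 0.33 and 0.06, none past the threshold.

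After 24 h, 17 members were lower and 6 higher, where 9.93% of all REs were lower and 4.7% higher. Of the 11 members lower at 3 h, 10 were lower at 24 h, which is 90.9% of the former and 58.8% of the latter. COL2A1-RE1, COL2A1-RE5, COL2A1-RE6, COL2A1-RE9, COL9A2-RE5, COL9A3-RE3 and COL11A1-RE5 were lower at 24 h and not past the threshold at 3 h. Of these, only COL2A1-RE1 also passed the test of the difference from WT cells at 24 h. COL9A3-RE3 had a log2 fold change of -1.15 ± 0.34 in WT cells at 24 h, which was not past the threshold. Of the 17, 16 were also lower at 48 h, and COL9A2-RE5 was the exception. Without the samples of S9CC13_R4, 6 members were called at 3 h and 7 at 24 h, with the spread then taken from both genotypes. At 24 h all 6 higher calls are lost with DESeq2 (10 lower), without S9CC13_R4 (7 lower) and without S9CC13_R5 (10 lower). Without batch in the fit no member was called at either time.

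**Figure D4:**
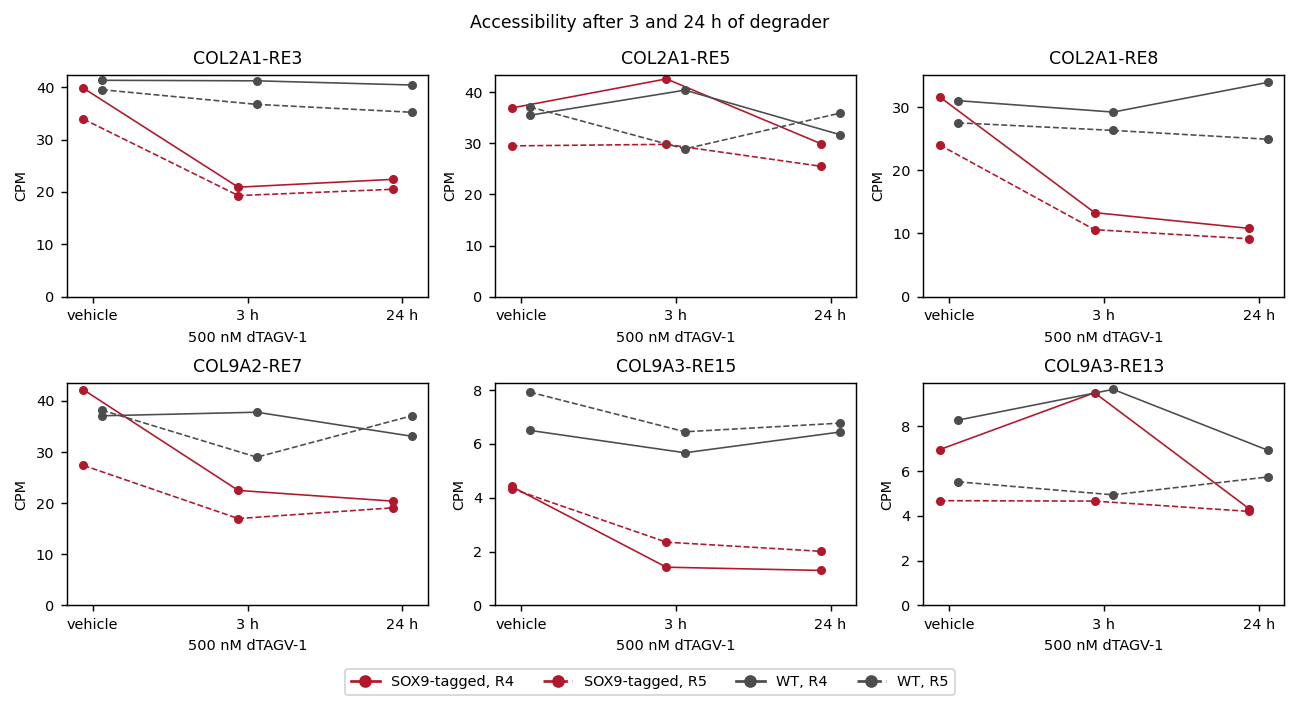
CPM of 6 members with vehicle and after 3 and 24 h of 500 nM dTAGV-1 in both genotypes, by batch. SOX9-tagged cells are red, WT grey, and lines join samples of a batch; COL2A1-RE3, COL2A1-RE8, COL9A2-RE7 and COL9A3-RE15 are lower by 3 h in SOX9-tagged cells, while the promoter REs COL2A1-RE5 and COL9A3-RE13 overlap vehicle at 3 h.

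WT cells, which lack the tag, controlled for effects of dTAGV-1 itself. At 48 h no member passed with edgeR, 15 had an unadjusted p under 0.05, and 0.303% of all REs were called. COL2A1-RE8 was at 23.9 and 27.8 CPM at 0 nM and at 25.1 and 29.2 CPM at 500 nM in WT cells, and COL9A2-RE7 was at 35.1 and 42.4 CPM and then 36.0 and 43.7 CPM. The WT values of both REs overlapped between concentrations and lay above every SOX9-tagged replicate at 500 nM. Not all named members overlapped in WT cells. With 2 samples a group such a gap can arise without an effect, and its share over all REs was not counted. COL11A2-RE18, lower in SOX9-tagged cells, was at 8.39 and 7.54 CPM at 0 nM and at 6.70 and 6.82 CPM at 500 nM in WT cells, -0.24 ± 0.11 on the log2 scale with an edgeR adjusted p of 0.526. COL2A1-RE5 was at 37.5 and 32.2 CPM and then, higher, at 39.6 and 37.9 CPM (0.14 ± 0.07, edgeR adjusted p = 0.514). COL11A1-RE5 and COL9A3-RE36 were likewise lower without overlap at 500 nM, COL11A1-RE5 by -0.01 only, and COL2A1-RE7 and COL9A1-RE4 higher. In the WT time course no member passed at 3 h or at 24 h, with 5 and 4 members at an unadjusted p under 0.05; in all REs 0.0% were called at 3 h and 0.0% at 24 h (3656 and 4642 at an unadjusted p under 0.05). DESeq2 called no member in the WT time course. Some named members did not overlap there, again with 2 samples a group. COL9A1-RE7 was higher at 3 and 24 h (0.52 ± 0.35 and 0.66 ± 0.35 on the log2 scale), as in SOX9-tagged cells. Its difference between genotypes was 0.08 ± 0.46 at 3 h. COL9A3-RE15, COL2A1-RE7 and COL2A1-RE9 were lower at 3 h (-0.24 ± 0.15, -0.14 ± 0.14 and -0.11 ± 0.11). At 24 h COL9A2-RE7 was lower (-0.1 ± 0.13) and COL9A3-RE36 higher (0.24 ± 0.15).

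The difference between the SOX9-tagged and WT effects was tested as an interaction. At 3 h it was negative for 8 members and positive for none, where 5.13% of all REs were negative and 0.072% positive. At 24 h it was negative for 10 members and positive for none, where 6.28% and 0.45% of all REs were. All 8 were among the 11 members lower at 3 h, and all 10 were among the 17 lower at 24 h. At 3 h the difference was -1.23 ± 0.16 at COL2A1-RE8, -1.42 ± 0.24 at COL2A1-RE10, -0.71 ± 0.18 at COL9A2-RE7 and -1.07 ± 0.25 at COL9A3-RE15, on the log2 scale. On leaving out S9CC13_R4, with 1 SOX9-tagged sample then left in a group, it was -0.59 at COL9A2-RE7 and -0.72 at COL9A3-RE15. COL9A1-RE5, COL9A3-RE14 and COL9A3-RE17 were lower at 3 h without passing this test. At 24 h this held for COL2A1-RE5, COL2A1-RE6, COL2A1-RE9, COL9A2-RE5, COL9A3-RE3, COL9A3-RE17 and COL11A1-RE5. Without S9CC13_R4 the count at 3 h was 3, and at 24 h it was 6 without S9CC13_R4 or without WT_R4.

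**Figure D5:**
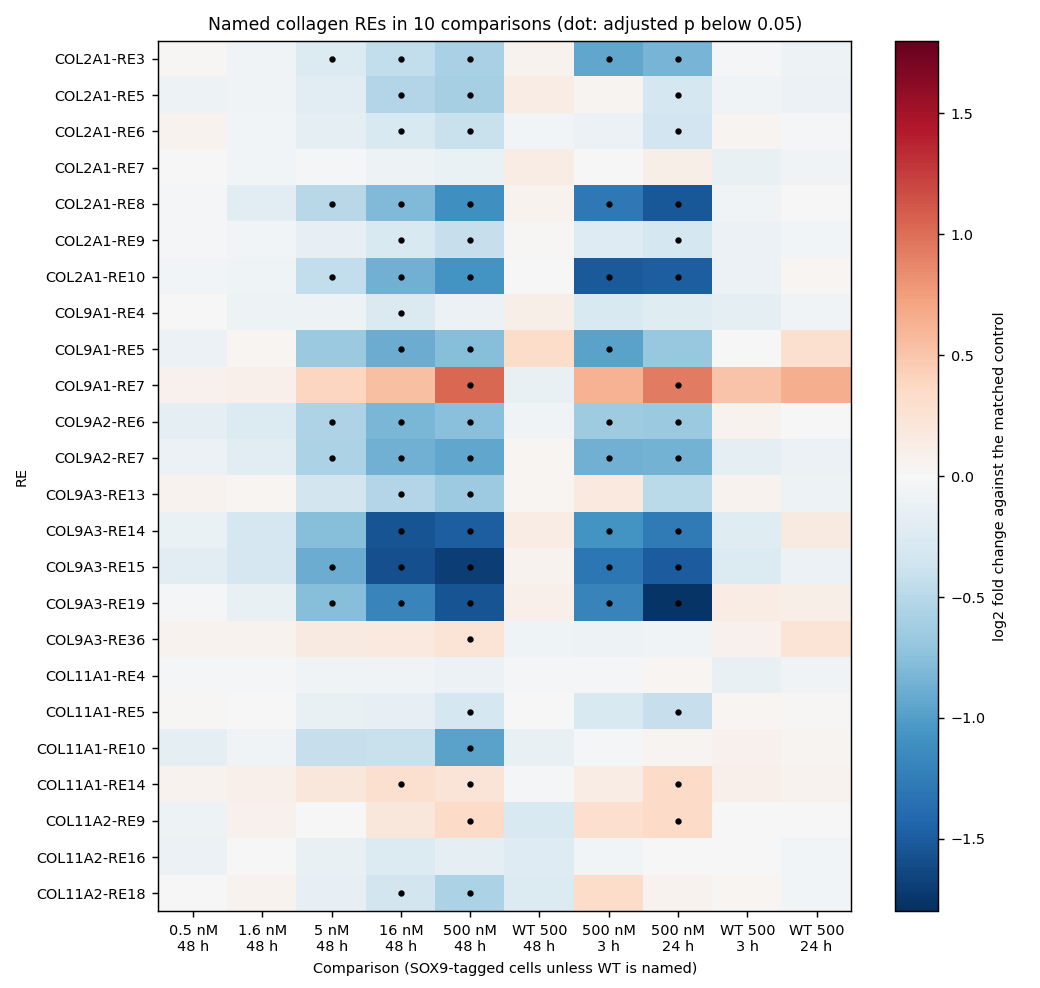
Log2 fold change of the 24 named members in each comparison with its matched control. Columns are concentrations, times and genotypes, colour runs from -1.8 to 1.8, and a dot marks an edgeR call; dots fill the rows of COL2A1-RE3, COL2A1-RE8, COL2A1-RE10, COL9A2-RE6, COL9A2-RE7, COL9A3-RE15 and COL9A3-RE19 at 5, 16 and 500 nM and at 3 and 24 h, and no dot stands in a WT column.

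Without dTAGV-1, SOX9-tagged cells were set against WT cells of the same batch (R4, R5 or R8), with 1 sample of each genotype per batch. The samples of R4 and R5 are those with vehicle for 24 h, and those of R8 are from 0 nM at 48 h. The SOX9-tagged clone also differs, being S9CC13 in R4 and S9CC47 in R8. SOX9-tagged cells were lower at 3 members and higher at none, where 0.429% of all REs were lower and 0.521% higher. All 3 belong to COL9A3: COL9A3-RE14 (-0.81 ± 0.17), COL9A3-RE15 (-0.60 ± 0.13) and COL9A3-RE27 (-0.55 ± 0.11), the last of which was chosen for naming after its values were seen. COL9A3-RE15 was at 4.42, 4.34 and 4.09 CPM in SOX9-tagged cells and at 6.50, 7.92 and 5.54 CPM in WT cells of batches R4, R5 and R8. The tagged sample was below the WT sample in each batch, and the groups did not overlap. COL9A3-RE14 and COL9A3-RE15 also fell on depletion. Both of these calls between genotypes are lost with DESeq2 (adjusted p = 0.12 and 0.0515), which called COL9A3-RE27 alone. COL2A1-RE8, COL2A1-RE10 and COL9A2-RE7 had 0.04, 0.06 and -0.00 on the log2 scale. No call of this comparison held without batch R5, where no member passed.

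What the lower members share beyond position was described by their sequence. A SOX core was present in 60 of the 124 members (48.4%) and in 49.6% of all REs. It was present in 14 of the 24 lower members (58.3%), in 45 of the 95 members not called at 500 nM and in 1 of the 5 higher ones. Among the 11 members lower at 3 h it was present in 8 (72.7%). More than 1 core was found in 17.4% of all REs, 21.8% of the members, 33.3% of the lower members and 54.5% of those lower at 3 h. COL9A3-RE15, which fell most, holds no core in its 501 bases, and neither do COL9A2-RE6 and the promoter REs COL2A1-RE5 and COL9A3-RE13. The lower members are rich in G and C, with a median of 58.4% against 55.0% for all members and 48.1% for all REs.

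A facing pair was found in 0.217% of all REs and in 2 members. One is COL9A2-RE7, where ACAAAGttctcCTTTGT (gap of 5 bases) ends the window printed above. The other is COL9A1-RE4, where ACAATGgggtCTTTGT (gap of 4 bases) lies in an RE that was lower at 16 nM alone. A near pair, a search added after the values were seen, was found in 3.18% of all REs and in 5 members, 3 of them among the 24 lower members: COL9A2-RE7, COL9A3-RE14 with ACAAGGgggcCTTTGT and COL11A1-RE5 with ACAAAGcttgCTTTCT. The fifth, COL9A1-RE1, had a log2 fold change of 0.05. These are matches of letters, and binding of SOX9 was not measured in this assay.

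Genes that work with these collagens in cartilage were placed beside them with the same position rule. Of all REs, 13.9% were lower and 10.2% higher at 500 nM. For 12 other cartilage matrix genes, among them ACAN (aggrecan) and MATN1 (matrilin), 53 of 254 REs were lower at 500 nM and 19 higher, with a median log2 fold change of -0.08. At ACAN 4 of 25 were lower, the lowest by -3.13 on the log2 scale, and at MATN1 12 of 29, the lowest by -3.39. For SOX5, SOX6 and SOX9, 32 of 134 were lower and 15 higher (median -0.11), with 17 of 53 lower at SOX5, 14 of 62 at SOX6 and 1 of 19 at SOX9. For 10 other fibrillar and fibril-associated collagens, 33 of 295 were lower and 27 higher (median 0.03), and at COL1A2, a chain of the bone and skin collagen, none of 22 was lower and 4 were higher. For 15 genes of collagen folding, modification and processing, such as P4HA1 (prolyl hydroxylation) and LOX (cross-linking), 43 of 378 were lower and 24 higher (median 0.01); at LOX none of 14 was lower and 6 were higher. The members, at 24 lower and 5 higher of 124 (median -0.05), stand between the cartilage matrix genes and the other collagens in the median of their change.

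At 3 h, 7.43% of all REs were lower. The same lists gave 18 of 254 REs lower for cartilage matrix, 20 of 295 for other collagens and 16 of 378 for folding and processing. For SOX5, SOX6 and SOX9 it was 23 of 134, against 11 of 124 members. The SOX list thus had the highest share of the 5 sets, and 15 of its 23 lower REs lay at SOX5. In WT cells 0.0% of all REs were called at 3 or at 24 h, so none of these lists could have a called RE there.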

How the data were processed

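Open chromatin was measured in 58 samples. The deposited table holds counts, whole reads per RE and sample with no normalization. The authors trimmed adapters, aligned read pairs to hg38 with Bowtie2 2.4.1, removed duplicates and mitochondrial reads, called peaks with MACS2 2.2.7.1, merged reproducible summits into 1 set of REs and counted each sample over it, without pooling replicates. Because the authors kept only summits that recurred across several differentiations or lines, regions open in fewer of these were not counted. Samples were grouped by title. The titles were also used for the 0 and 0.5 nM samples of S9CC13_R14, whose concentration labels differ from them. The SOX9-tagged R5 time-course columns name another clone than their titles, and no time-course test uses the clone.

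Counts were compared with edgeR 4.0.16 in R 4.3.3 (TMM normalization, quasi-likelihood F test, all 151457 REs, no filter, Benjamini-Hochberg, threshold 0.05), with the differentiation batch in each model, a covariate of the study as well; the study's tool, DESeq2 (here 1.42.0), was an alternative. CPM values are TMM-scaled, and ratios per replicate were taken on log2(CPM + 0.1). Differences between genotypes were interaction terms with genotype by batch as blocks. Replicates are clones and differentiations, and same-numbered samples pair: their deviations correlated at 0.501 or more (mean 0.656, against -0.108 for other pairs, over 129712 REs). The Hill curves used CPM corrected for batch. Scripts were tested on simulated data. REs were assigned to genes with GENCODE release 44, and promoter means within 1000 bp of a start site. Other scalings, a filter on low counts, DESeq2, fits with and without the replicate and leaving out each replicate were tried.

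The members and gene lists were chosen with earlier results of these data known. Named members are, per gene, the most open promoter RE, the 3 lower REs and the 1 higher RE with the lowest p at 500 nM, the REs of intron 1 of COL2A1, and any RE called at 0.5 or 1.6 nM or in WT cells at 48 h. Other members in the text were named after their values were seen.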

Additional observations from a re-analysis of the deposited data

Results flagged for a closer look

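In 8 of 144 groups of named members tested (7 replicates of 1 member at 1 concentration), 1 replicate stood apart from the others, where chance gives about 1 in 20 groups. Of these flags 6 were replicate S9CC13_R6 at COL2A1-RE7 and COL2A1-RE9, both in intron 1 of COL2A1. It was the highest at COL2A1-RE7, with 23.6, 22.5 and 23.5 CPM at 0.5, 1.6 and 16 nM, where the next replicate was at 16.9, 16.5 and 17.1 CPM. It was also the highest at COL2A1-RE9, with 65.6, 65.7 and 60.6 CPM at these concentrations, where the next was at 52.1, 50.5 and 44.8 CPM. At COL9A3-RE36, replicate S9CC47_R5 was the highest at 5 nM, with 14.5 CPM against 11.5 CPM for the next. At COL11A1-RE5, replicate S9CC13_R10 was the highest at 1.6 nM, with 32.8 CPM against 28.7 CPM.

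The effect of 500 nM differed between SOX9-tagged and WT cells by an interaction test (edgeR adjusted p below 0.05) at 7 named members at 3 h and 8 at 24 h, and each difference was lower in SOX9-tagged cells. At 3 h the differences in log2 fold change were -0.90 at COL2A1-RE3, -1.23 at COL2A1-RE8, -1.42 at COL2A1-RE10, -0.71 at COL9A2-RE6, -0.71 at COL9A2-RE7, -1.07 at COL9A3-RE15 and -1.36 at COL9A3-RE19. At 24 h they were -0.76 at COL2A1-RE3, -1.55 at COL2A1-RE8, -1.55 at COL2A1-RE10, -0.68 at COL9A2-RE6, -0.77 at COL9A2-RE7, -1.45 at COL9A3-RE14, -1.40 at COL9A3-RE15 and -1.90 at COL9A3-RE19.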

How the results depend on the processing

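No call of a named member turned its direction under any alternative. Without the replicate block, that is without batch in the fit, the members called were 8 at 16 nM, 2 at 5 nM, 0 at both 3 and 24 h in the SOX9-tagged time course, 0 for the genotype difference at 3 h, 0 at 24 h, and 0 for untreated SOX9-tagged against WT cells. With the replicate block in place of batch they were 35 at 16 nM, 12 at 5 nM and 4 at 1.6 nM; at 500 nM they were 36, which held all 29 called with batch. DESeq2 called 10 at 24 h and 1 in untreated cells. On leaving out each replicate the counts ran from 24 to 34 at 500 nM, 16 to 27 at 16 nM, 5 to 19 at 5 nM, 0 to 1 at 1.6 nM and 0 to 0 at 0.5 nM. The 1 at 1.6 nM came without S9CC47_R6. For the time course they ran from 6 to 12 for SOX9-tagged cells at 3 h and 7 to 23 at 24 h (10 without S9CC13_R5), 3 to 6 and 6 to 10 for the genotype differences, 0 to 3 for untreated cells, and 0 to 0 in WT cells at 3, 24 and 48 h. A lone sample left in a group was assumed to vary like the others. The median ED50 ran from 20.6 to 25.8%. The size factors of DESeq2 and the filter on low counts left each count within 1.5 times its value. The cause of these shifts was not tested, beyond the fewer samples in a fit that leaves some out. Depth limits the weakest members: COL9A1-RE5 held 5 to 113 counts per sample and COL11A1-RE10 13 to 135, where COL9A2-RE7 held 483 to 3444.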
